A study of Mus musculus with 13 samples.

Results

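The B and plasma cell genes described here are 9 genes, chosen by symbol out of 22609 genes measured in each of 2 tables: Cd79a, Cd79b, Ms4a1, Pax5, Blk, Fcrla, Cr2, Igj (the older symbol of the J chain, Jchain) and Mzb1. All 9 had a row in both tables, and Mzb1 was matched to the row of its older symbol 2010001M09Rik through the RefSeq synonyms. RNA was sequenced from C57BL/6 mice that were WT or carried a fat-specific knockout (KO) of PD-L1, the ligand of the inhibitory receptor PD-1 encoded by Cd274. One set of libraries came from transplanted tumours of E0771, a mouse mammary tumour line, with 3 in WT hosts and 3 in KO hosts. The other set came from visceral fat after a high-fat diet (HFD), with 3 WT and 4 KO libraries. The driver of the deletion, the age and sex of the mice, the diet of the tumour hosts and whether each library was a separate mouse are not given in the sources used here, so each p-value measures only how far these libraries spread, which may be technical. Tumour libraries held 22834259 to 34706555 gene reads, and fat libraries 29362788 to 41534662.

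B cells sense antigen through a surface immunoglobulin paired with the signalling chains that Cd79a and Cd79b encode. Kinases of the Src family, Blk among them, start the signal, while complement receptor 2 (Cr2, CD21) lowers the threshold for it and Ms4a1 encodes CD20. Pax5 is the transcription factor that holds cells in the B lineage and is switched off when they become plasma cells. Plasma cells secrete antibody, and the J chain joins the immunoglobulins of polymeric IgM and IgA. Visceral fat holds B cells both scattered and in small lymphoid clusters, and B cells also enter tumours to a varying extent.

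The members lie on 8 chromosomes of the mouse genome (GENCODE M21 on GRCm38), so that only Fcrla and Cr2 share one. Cd79a spans chr7:24897381-24902197, Cd79b chr11:106311341-106314762, Ms4a1 chr19:11249675-11266241, Pax5 chr4:44524757-44710487 and Blk chr14:63372836-63417037. Fcrla spans chr1:170917576-170927583, Cr2 chr1:195136811-195176716 and Jchain chr5:88519809-88527891. Cd79a is on the plus strand and the other 8 genes are on the minus strand.

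Promoters of 5 members (Fcrla, Cr2, Pax5, Jchain and Cd79a) were found in the RefSeq table for GRCm38.p6, and the 250 bases before each start were searched on both strands. The octamer ATTTGCAT, a known element of immunoglobulin promoters, was in 0 of the 5 and in 1.601% of all 32851 promoters. The TATA box letters TATAAA were in 0 of the 5 and in 12.4% of all promoters. The letters CCCNNGGG, core of the early B cell factor motif, were in 0 of the 5 against 11.8%. A looser form, TCNNGGGA, which was added after the sequences had been read, was in 2 of the 5, Pax5 and Cd79a, against 15.1% of all promoters. The 2 stretches below are shown because Cd79a and Igj stand for the B cell and the plasma cell members in the results. The capitals mark the TCNNGGGA match 175 to 168 bases before the RefSeq start of Cd79a. For Cd79a only the first 134 of the 250 bases searched are printed. They end at the GENCODE start given above, which lies upstream of the RefSeq start.
Cd79a, chr7:24897247-24897380, plus strand, GRCm38.p6: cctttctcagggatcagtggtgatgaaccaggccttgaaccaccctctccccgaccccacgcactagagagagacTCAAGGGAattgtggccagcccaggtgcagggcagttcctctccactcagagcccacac
Jchain, chr5:88527898-88528147, minus strand, GRCm38.p6: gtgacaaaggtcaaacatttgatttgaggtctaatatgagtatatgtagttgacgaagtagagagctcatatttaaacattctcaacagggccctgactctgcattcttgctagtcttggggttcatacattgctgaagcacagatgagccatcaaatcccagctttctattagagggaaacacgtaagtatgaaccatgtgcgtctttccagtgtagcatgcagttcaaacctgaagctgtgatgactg
These matches describe letters only, and no binding was measured here.

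In visceral fat, 0 of the 9 members passed the test between KO and WT, while 16.8% of the 14455 genes tested were called higher and 17.4% lower. The members' values overlapped between the groups for 9 of 9, whereas 43.7% of all genes tested did not overlap. Of the 9 log2 fold changes (KO minus WT), 8 were above 0, with a median of 0.31 beside a median of -0.0005 over all genes tested. Single libraries moved that median: it was 0.04 without the WT column numbered 1, where 5 of 9 were above 0, and 0.76 over 8 tested members without the WT column numbered 3. It was 0.19 without the WT column numbered 4, 0.60 without KO replicate 2 and 0.22 over 8 tested members without KO replicate 3. These values are read counts that the authors divided by a size factor, so that 1 read was worth 0.860 to 1.10, and they were tested with limma on log2(value + 1). An adjusted p (Benjamini-Hochberg over all genes tested) under 0.05 counted as a call. In bulk tissue, fewer cells of a type and less RNA per cell cannot be told apart. No difference was detected in the targeted gene between the fat libraries labelled KO and WT: the mean of Cd274 was 543.9 ± 17.6 over 4 KO libraries and 590.2 ± 129 (SD) over 3 WT libraries (limma log2 fold change -0.10, SE 0.15, adjusted p = 0.660). The row counts the whole gene and the deleted part is not given, so directions below refer to the libraries as labelled.

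The receptor chains come first. Cd79a, the first of the pair, measured 110.4, 57.2, 179 and 113 in KO replicates 1 to 4 and 56.8, 152 and 50.5 in the WT columns, which the deposited table numbers 1, 3 and 4. KO replicate 3 and the WT column numbered 3 stood above the rest, and the lowest KO library was level with the other WT columns. The fold was 1.396 (95% interval 0.660 to 2.95, limma adjusted p = 0.460). Cd79b, the partner chain, measured 224, 142, 246 and 181 in KO and 108, 263 and 135 in WT, and its highest library was in the WT group. Its fold was 1.24 (interval 0.741 to 2.08, limma adjusted p = 0.489). For both chains the interval holds falls as well as rises, so these 7 libraries do not settle the direction of a difference.

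Of the surface and co-receptor genes, Ms4a1 (CD20) measured 106, 55.0, 211 and 123 in KO and 60.2, 241 and 72.2 in WT, so that each group held 1 library far above its others. The means were 124 ± 64.8 (SD, n = 4) and 124 ± 101 (SD, n = 3), with a fold of 1.09 (interval 0.449 to 2.65, limma adjusted p = 0.883). Cr2, which is also the complement receptor of follicular dendritic cells, measured 12.1, 16.2, 93.5 and 42.3 in KO and 20.6, 79.2 and 15.5 in WT. Here too KO replicate 3 and the WT column numbered 3 were the 2 highest, and the fold was 1.01 (interval 0.293 to 3.51, limma adjusted p = 0.987). Cr2 rested on 11 to 103 reads per library.

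The kinase Blk was the 1 member with a fold below 1 in fat. It measured 70.6, 44.2, 71.7 and 62.5 in KO and 56.8, 125 and 91.8 in WT. The KO libraries lay close together and below the WT columns numbered 3 and 4, but overlapped the column numbered 1. The fold was 0.708 (interval 0.430 to 1.17, limma adjusted p = 0.251). Fcrla, an Fc receptor-like protein kept inside B cells, measured 120.3, 72.3, 99.9 and 77.6 in KO and 49.9, 93.9 and 55.7 in WT. It was highest in KO replicate 1 and its fold was 1.41 (interval 0.884 to 2.25, limma adjusted p = 0.222).

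Pax5, the lineage factor, was near the lower limit of the assay. It had 7, 2, 32 and 10 reads in KO replicates 1 to 4 and 2, 31 and 5 in the WT columns numbered 1, 3 and 4. The exact Poisson interval ran from 21.9 to 45.2 reads for KO replicate 3 and from 0.242 to 7.22 for KO replicate 2, so these libraries differed by more than counting error. The group means were nearly equal, 12.3 ± 11.7 (SD, n = 4) against 12.4 ± 15.6 (SD, n = 3) as normalised values (fold 1.21, interval 0.259 to 5.68, limma adjusted p = 0.850).

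Of the members, the plasma cell gene Igj had the smallest limma adjusted p in fat. Without the WT column numbered 1 that place went to Blk (log2 fold change -0.80, limma adjusted p = 0.0664). Igj measured 7119, 2521, 4784 and 4868 in KO and 1024, 3173 and 3039 in WT. Of the KO libraries, 3 of 4 lay above every WT library, and KO replicate 2 lay below the WT columns numbered 3 and 4. The means were 4823 ± 1877 (SD, n = 4) and 2412 ± 1204 (SD, n = 3), and the fold was 2.11 (interval 1.03 to 4.31). Igj reached p = 0.0432 before adjustment, but its limma adjusted p was 0.0986 and the exact two-sided permutation test over 35 relabellings gave p = 0.114. Without the WT column numbered 1, its lowest library, the log2 fold change of 1.08 (SE 0.45) became 0.54 (SE 0.35) with a limma adjusted p of 0.265; over all alternatives that p ran from 0.0563 to 0.265. Mzb1 (chr18:35647267-35649367) encodes a chaperone of the endoplasmic reticulum of marginal zone B cells and plasma cells. It measured 171, 73.4, 117 and 88.7 in KO and 29.2, 102 and 83.5 in WT. KO replicate 1 was highest and the WT column numbered 1 lowest, as for Igj, with a fold of 1.68 (interval 0.814 to 3.49, limma adjusted p = 0.234). Without that WT column its log2 fold change went from 0.75 to 0.21, and over the fits that left out 1 library it ran from 0.21 to 1.09.

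**Figure D1:**
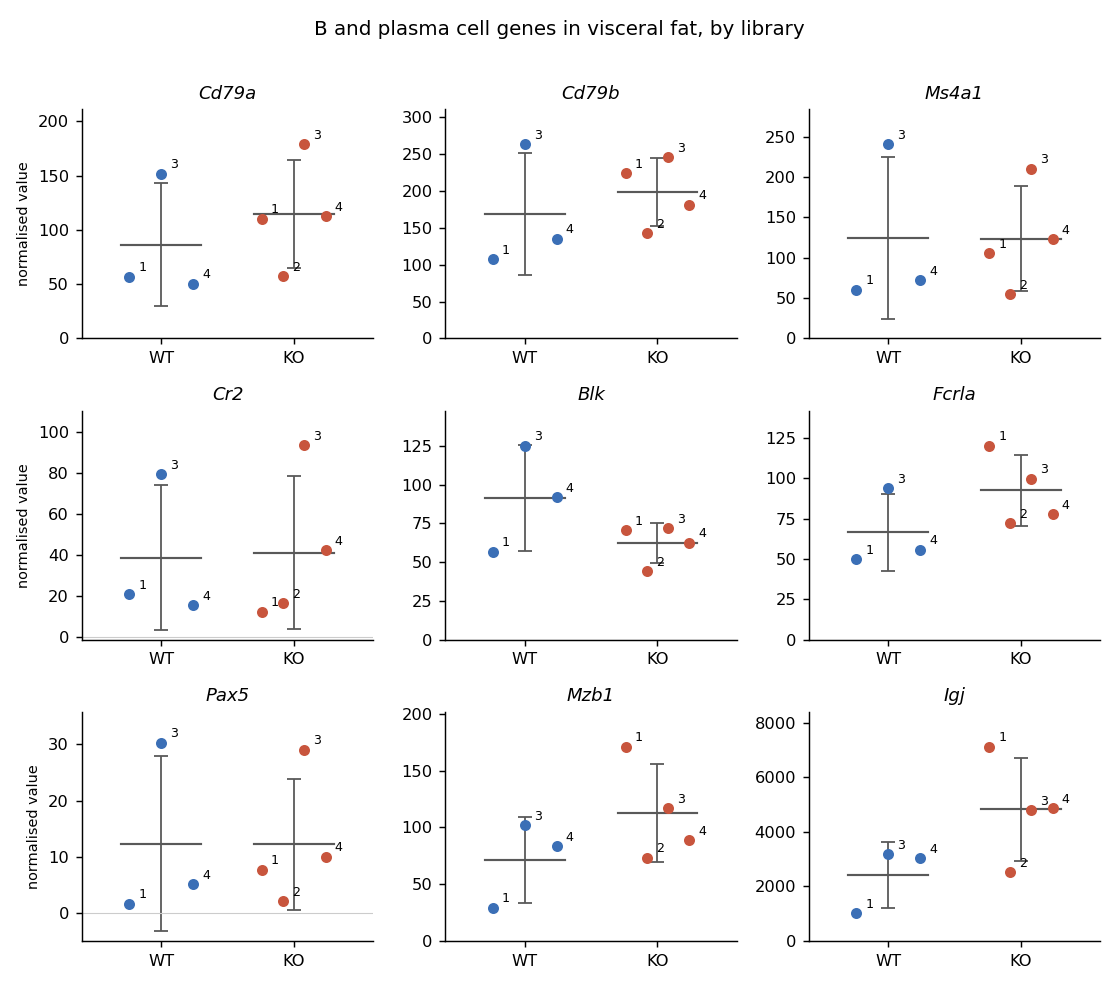
Normalised values (read count divided by a size factor, linear axis) of the 9 genes in each library of visceral fat, with WT in blue and KO in red; each number is the deposited column's number, horizontal lines are group means and error bars 1 SD (n = 3 WT, n = 4 KO). KO 3 and WT 3 are the 2 highest libraries for Cd79a, Cd79b, Ms4a1, Cr2 and Pax5, while KO 1 is the highest for Igj, Mzb1 and Fcrla, and the groups overlap in all 9 panels.

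Single libraries thus set most of the spread. KO replicate 3 was among the 2 highest libraries for 7 of 9 members and the WT column numbered 3 for 6 of 9, while the WT column numbered 1 was the lowest for 5. The 2 libraries highest for most members therefore fell in different groups. Averaged over the 9 members after each was standardised on the log2 scale, KO replicates 1 to 4 scored 0.424, -0.761, 0.895 and 0.183, and the WT columns numbered 1, 3 and 4 scored -1.22, 0.949 and -0.474. Across the 7 fat libraries, Pearson's r of a member with that mean (which contains the member itself) was 0.984 for Cd79b, 0.963 for Pax5, 0.947 for Ms4a1 and 0.937 for Cd79a. It was 0.843 for Fcrla, 0.796 for Mzb1, 0.755 for Igj, 0.690 for Cr2 and 0.612 for Blk. The receptor chains, Ms4a1 and Pax5 thus followed one pattern closely, and Blk, Cr2 and the plasma cell genes less closely. These r values are descriptions over 7 libraries that share their normalisation.

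The J chain set against the B cell surface genes also varied. The ratio of Igj to the summed values of Cd79a, Cd79b and Ms4a1 in fat was 16.2, 9.90, 7.53 and 11.7 in KO and 4.56, 4.84 and 11.8 in the WT columns numbered 1, 3 and 4. The WT column numbered 4 lay inside the KO range, and the exact two-sided permutation test gave p = 0.2 over 35 relabellings. The 2 lowest ratios were those of the WT columns numbered 1 and 3.

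Outside the 9 members, the genes whose pattern across fat libraries was most like their mean were mostly lymphocyte genes. Ptprcap, a CD45-associated protein, had r = 0.997 over 7 libraries. Pou2af1, the B cell coactivator of octamer factors, had r = 0.959 and measured 199.8, 147, 342 and 219.7 in KO and 78.3, 289 and 131 in WT. Ly6d (0.955), Acap1 (0.943), Cxcr5 (0.942), Gfi1 (0.934), 2610035D17Rik (0.933) and Btla (0.924) followed. None of these 8 passed the limma test between the groups, with adjusted p from 0.328 for Pou2af1 to 0.819 for Cxcr5.

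Genes of B cell receptor signalling other than the members gave another picture in fat. Of a list of 16 co-receptors and signalling proteins, 12 rose in KO and 0 fell, with a median log2 fold change of 1.58. Cd72, an inhibitory co-receptor, measured 4477, 4873, 3315 and 4642 in KO and 871, 205 and 84.6 in WT (log2 fold change 4.11, SE 0.64, limma adjusted p = 0.00261). The adaptor Blnk rose by 2.88 (SE 0.44) and the adaptor Pik3ap1 by 2.48 (SE 0.46) on the log2 scale. Bank1 (0.02), Cd81 (-0.33) and Fcgr2b (0.48) did not pass. Several of the genes that rose, Lyn, Btk, Blnk and Plcg2 among them, are also used by macrophages and other myeloid cells.

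Macrophage markers rose in the same libraries. Of 10 on the list, 9 rose and 0 fell, with a median log2 fold change of 2.13, and their summed value was 217900 to 316760 in KO and 41916 to 117230 in WT. Adgre1, which encodes F4/80, measured 36923, 37945, 26471 and 30797 in KO and 10650, 5013 and 2587 in WT. No defining macrophage marker was at 0 in any group. The order of the WT columns differed between the 2 sets of genes: the column numbered 1 was the highest of the WT columns for Cd72, Blnk and Adgre1 and the lowest library for Igj and Mzb1. The part that macrophages had in the rise of the signalling genes was not tested. All 8 adipocyte markers on their list fell (median -1.61), with summed values of 265430 to 415660 in KO and 862290 to 882060 in WT, and their part in the members' values was not tested either.

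Among 16 tested genes of B cell identity, 6 rose and 2 fell, with a median log2 fold change of 0.79 (0.47 without the WT column numbered 1). Cd180 rose by 2.66 (SE 0.52), Cd37 by 1.77 (SE 0.19), Ly86 by 1.71 (SE 0.33) and Fcrl1 by 1.55 (SE 0.38). Cd180 and its partner Ly86, which form a receptor complex for bacterial lipopolysaccharide responses, and the tetraspanin Cd37 are also made by myeloid cells. Ebf1, a factor needed for B cell development and also active in adipocyte precursors, fell by 1.21. Pou2af1 (0.59), Spib (-0.02), Ikzf3 (-0.14) and Bach2 (-0.06) did not pass. Without KO replicate 3 and the WT column numbered 3, the count was 3 higher and 1 lower, and 1 was lower in place of 2 in 5 of the 7 fits that left out 1 library (KO replicates 1, 2 and 4 and the WT columns numbered 3 and 4).

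Of 13 tested plasma cell genes, 6 rose and 0 fell, with a median log2 fold change of 0.56 (0.30 without the WT column numbered 1). Sdc1, which encodes CD138 and is also made by epithelial and other cells, rose by 1.69 (SE 0.35), Sec11c of the signal peptidase by 1.16 (SE 0.24) and Fkbp11 by 1.10 (SE 0.20). Tnfrsf13b, the receptor TACI, measured 43.1, 90.6, 73.5 and 70.5 in KO and 44.7, 25.4 and 14.4 in WT. It passed with a log2 fold change of 1.36 (limma adjusted p = 0.0344), but kept that call in only 2 of 7 fits that left out 1 library. The plasma cell factors Xbp1 (0.01) and Irf4 (-0.37) and the receptor Tnfrsf17 (BCMA, 0.02) did not pass. The count of 6 fell to 3 without KO replicate 2, to 4 when KO replicate 3, KO replicate 4 or else the WT column numbered 3 was left out, and to 3 without KO replicate 3 and the WT column numbered 3 together.

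**Figure D2:**
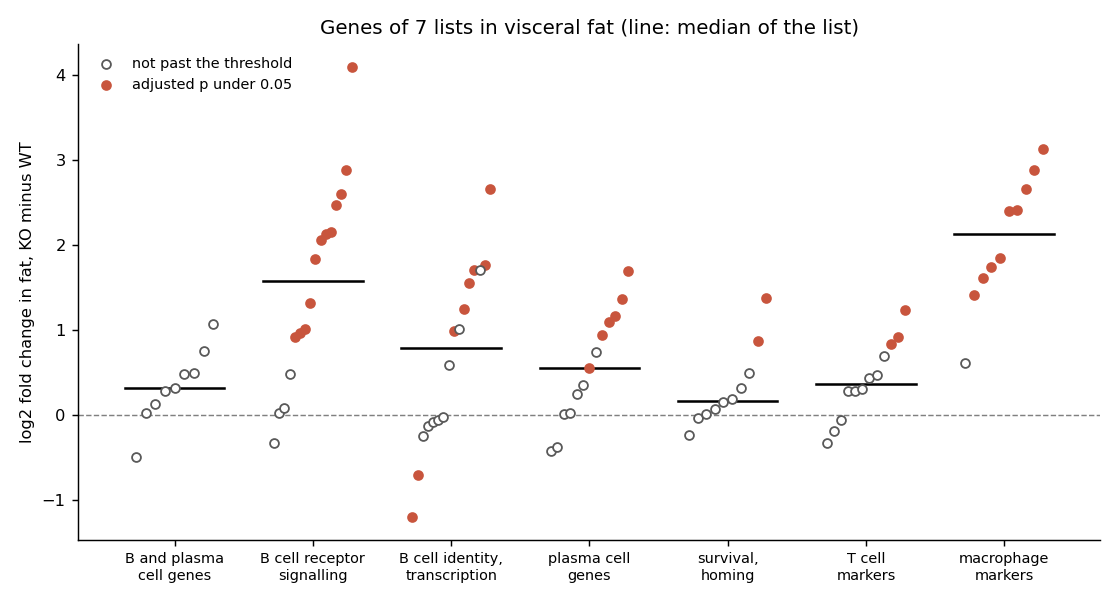
Log2 fold change (KO minus WT, limma) of each tested gene in visceral fat for the 9 B and plasma cell genes and 6 other gene lists; filled points passed an adjusted p of 0.05, open points did not, and horizontal lines are list medians. The 9 members are all open with a median of 0.31, while 12 of 16 receptor signalling genes and 9 of 10 macrophage markers are filled.

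Survival and homing genes of B cells were mostly not called in fat, where 16.8% of all genes tested were called higher. Of 10 genes of this list tested, 2 rose, the cytokines Tnfsf13b (BAFF) by 0.87 (SE 0.20) and Tnfsf13 (APRIL) by 1.37 (SE 0.31), and 0 fell. Only 1 rose without KO replicate 3 and the WT column numbered 3. Cxcl13, the chemokine that draws B cells into follicles, measured 244, 112, 442 and 214.7 in KO and 253, 529 and 62.9 in WT (log2 fold change 0.15, SE 0.69, limma adjusted p = 0.890). Its 2 highest libraries were again KO replicate 3 and the WT column numbered 3. Ccl19 and Ccl21a had a value of 0 in every library of both tissues. Whether the counting could assign reads to these genes is not known, so these values do not show that they were absent. Rows for single immunoglobulin heavy or light chain segments were not analysed here, so antibody class was not measured.

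Markers of other tissue in the fat libraries were uneven. Glycam1, an adhesion ligand of lymph node vessels, was 37.5 and 44.5 in KO replicates 1 and 3 and 0 to 2.02 in the other 5 libraries. KO replicates 1 and 3 were also the 2 highest libraries for Fcrla and Mzb1. The WT column numbered 3, which was not high in Glycam1, was among the 2 highest for 6 of 9 members. The part of lymph node tissue in the members' values was not tested. Pnlip of the exocrine pancreas was 493 in KO replicate 4, and Epcam of epithelium was 142 in the WT column numbered 4. Neither library was the highest for any of the 9 members. However, KO replicate 4 was among the 2 highest for Igj, and the WT column numbered 4 for Blk. The part of pancreas or epithelium in the members' values was not tested. The T cell marker Cd3e measured 89.4, 55.0, 104 and 61.5 in KO and 54.2, 93.9 and 45.4 in WT (log2 fold change 0.28, SE 0.34, limma adjusted p = 0.546). Of 12 T cell markers 3 rose, beside 16.8% of all genes tested. The count was 0 without KO replicate 4. It was 1 when any one of KO replicates 1 and 3 and the WT columns numbered 1 and 3 was left out.

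In the E0771 tumours, 0 of the members passed the edgeR quasi-likelihood test, as 0.0% of all 13109 genes tested did, with 905 genes at an unadjusted p under 0.05 and 47 higher and 12 lower by DESeq2. Pax5 and Cr2 were too low to be tested, and none of the other 7 members reached an unadjusted p under 0.05. The log2 fold change was above 0 for 1 of these 7, with a median of -0.39 beside 0.0037 over all genes tested. That median was -0.95 without KO replicate 2 and -0.12 without KO replicate 3. It was -0.19, -0.24 and -0.16 without KO replicate 1, WT replicate 1 and WT replicate 2. The groups overlapped for 9 of 9 members, and 10.6% of all genes tested did not overlap. With 3 libraries a group, the exact two-sided permutation test over 20 relabellings cannot go below p = 0.1. The values below are reads rescaled by the TMM library size. The tumour cells are not the cells in which the gene was deleted, so the Cd274 row does not check these labels.

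Cd79a in tumours measured 47.2, 79.0 and 39.3 in KO replicates 1 to 3 and 92.6, 92.6 and 67.9 in WT replicates 1 to 3. KO replicate 2 was the 1 KO library above the lowest WT library. The means were 55.2 ± 21.0 (SD, n = 3) and 84.4 ± 14.3 (SD, n = 3), with a fold of 0.651 (interval 0.385 to 1.10, edgeR adjusted p = 0.778). Cd79b was the steadiest member, with 116, 132 and 104 in KO and 127, 120.3 and 156 in WT (fold 0.872, interval 0.609 to 1.25, edgeR adjusted p = 0.895).

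Ms4a1 had a single read in KO replicate 1 and 13 to 30 reads in the other tumours. Its normalised reads were 0.843, 22.9 and 17.96 in KO and 12.8, 28.6 and 16.7 in WT (fold 0.691, interval 0.211 to 2.26, edgeR adjusted p = 0.916). Cr2 had 0, 5 and 5 reads in KO and 10, 3 and 0 in WT. A fixed limit of 3 reads for a count of 0 equals 2.53 normalised reads in KO replicate 1 and 2.79 in WT replicate 3. The exact Poisson interval for a count of 0 ends somewhat higher, at 3.69 reads. Pax5 had 3, 5 and 4 reads in KO and 6, 17 and 3 in WT. At these depths a difference between the groups was not detectable for Cr2 or Pax5.

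Blk measured 8.43, 53.5 and 21.3 in KO and 24.6, 29.6 and 30.7 in WT, so that the KO tumours held both the highest and the lowest value. The fold was 0.959 (interval 0.389 to 2.36, edgeR adjusted p = 0.991). Fcrla, with 19.4, 71.4 and 20.2 in KO and 23.6, 22.0 and 41.8 in WT, was likewise highest in KO replicate 2. It was the 1 tested member with a fold above 1 (1.25, interval 0.528 to 2.95, edgeR adjusted p = 0.932). Without KO replicate 2 its log2 fold change turned from 0.32 to -0.56.

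The plasma cell genes of the tumours followed the same libraries. Igj measured 214, 438 and 159 in KO and 347, 456 and 255 in WT. The means were 271 ± 148 (SD, n = 3) and 353 ± 101 (SD, n = 3), with a fold of 0.764 (interval 0.459 to 1.27, edgeR adjusted p = 0.855). Mzb1 measured 15.2, 43.3 and 12.3 in KO and 50.2, 25.8 and 19.5 in WT (fold 0.731, interval 0.303 to 1.77, edgeR adjusted p = 0.902). The ratio of Igj to the sum of Cd79a, Cd79b and Ms4a1 was 0.986 to 1.89 over the 6 tumours, and the exact permutation test between the groups gave p = 0.7.

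**Figure D3:**
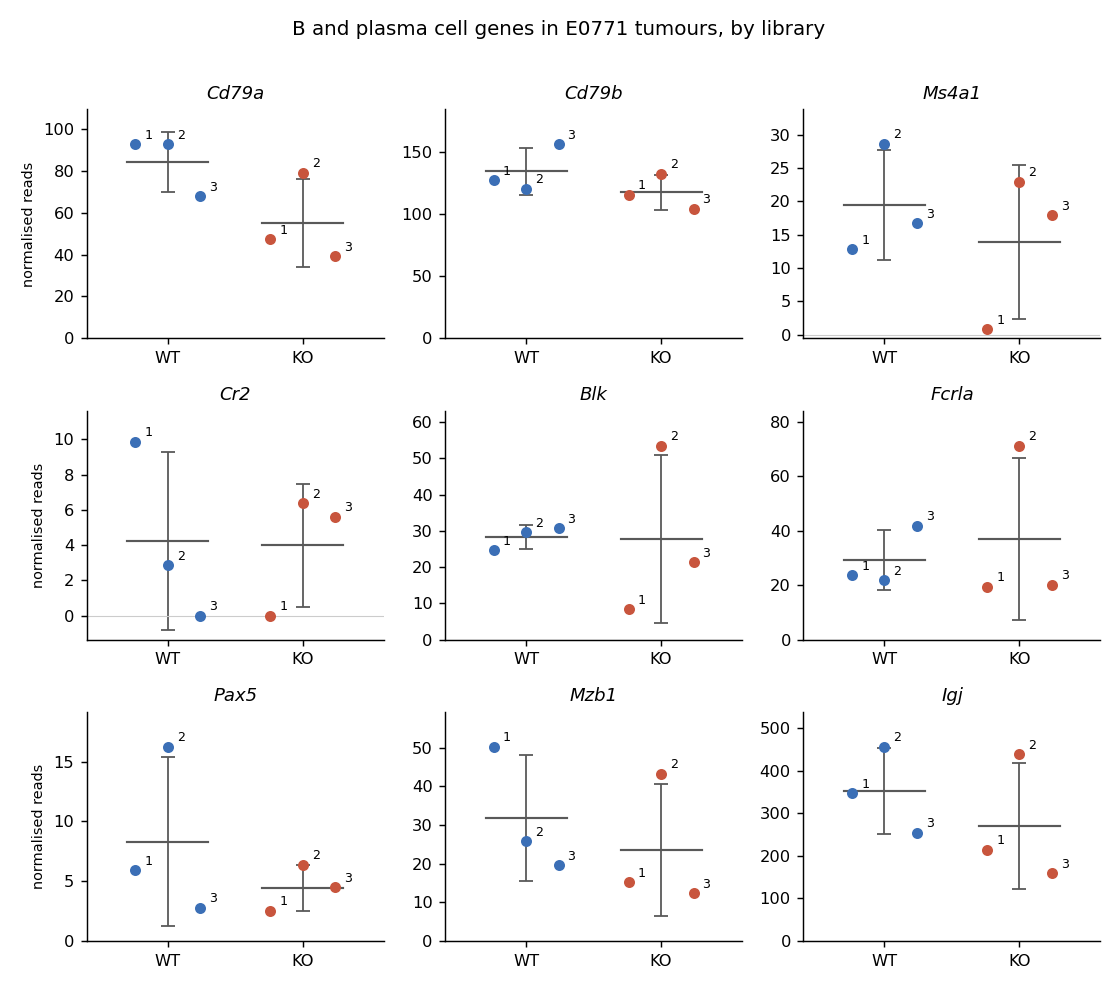
Normalised reads (TMM scale, linear axis) of the 9 genes in each E0771 tumour, with WT in blue and KO in red; each number is the replicate, horizontal lines are group means and error bars 1 SD (n = 3 in each group). KO 2 is among the 2 highest tumours in 8 of the 9 panels, KO 1 and KO 3 are the lowest in 4 panels each, and the groups overlap throughout.

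One tumour stood out among the members. KO replicate 2 was among the 2 highest libraries for 8 of 9 members, and KO replicates 1 and 3 were each the lowest for 4. Averaged over the 7 tested members after standardising, KO replicates 1 to 3 scored -1.08, 0.931 and -0.857, and the WT replicates 0.340, 0.338 and 0.329. On this average the 3 WT tumours were close to each other, and the KO tumours spread to both sides of them. In single members the WT tumours differed more, as in Mzb1 (50.2, 25.8 and 19.5), or less, as in Blk (24.6, 29.6 and 30.7). KO replicate 2 was also the highest tumour for T cell markers, whose summed reads were 7816, 15030 and 9056 in KO and 6072, 6213 and 7938 in WT. Without it the log2 fold change of Cd79a went from -0.62 to -0.96 and that of Igj from -0.39 to -0.91, and neither passed the test.

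In the tumour fit, 10 of 12 T cell markers had an unadjusted p under 0.05 and a log2 fold change above 0, with a median log2 fold change of 0.70, and 0 passed after adjustment. The median was 0.33 without KO replicate 2. Of the 16 receptor signalling genes 0 passed, with a median of 0.15 (0.07 to 0.22 with 1 library left out), Blnk at 0.89 (SE 0.22, edgeR adjusted p = 0.446) and Cd72 at 0.43 (SE 0.12, edgeR adjusted p = 0.525). Identity genes (median -0.02, and -0.11 to 0.09 with 1 library left out), plasma cell genes (0.01, and -0.06 to 0.05) and survival and homing genes (-0.12, and -0.20 to -0.09) also had 0 calls. Among the last, Ccr7, which guides lymphocytes to lymph nodes, measured 288, 381 and 318 in KO and 538, 483 and 529.9 in WT (log2 fold change -0.66, SE 0.16, edgeR adjusted p = 0.455).

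Among the 8 genes nearest to the members' mean across the 6 tumours were Ier3 (r = 0.982), 1110054M08Rik (0.980), Pou2af1 (0.979), Kcnip3 (0.976), Scg5 (0.9753), Mtcp1 (0.969) and Dus2l (0.968). Pou2af1, with 22.8, 61.2 and 28.1 in KO and 52.2, 55.4 and 45.6 in WT, was the 1 gene found among the nearest 8 in both tissues. These values are a description over 6 libraries.

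Expressed as reads per kilobase of exon, scaled to library size in units of 1000000 gene reads, Igj was the highest member in both tissues. In fat it averaged 46.3 ± 24.9 (SD, n = 7), and its lowest library (11.4) lay above the highest of Cd79b (5.50). Cd79b (3.96 ± 1.34), Mzb1 (2.40 ± 1.13), Cd79a (2.16 ± 1.10), Fcrla (1.42 ± 0.467), Blk (0.839 ± 0.296), Ms4a1 (0.612 ± 0.371), Cr2 (0.151 ± 0.129) and Pax5 (0.0427 ± 0.0425) followed. Each of these neighbours overlapped the next in its range over libraries. In tumours Igj averaged 4.24 ± 1.65 (SD, n = 6) and overlapped Cd79b (3.02 ± 0.432), which lay above Cd79a (1.64 ± 0.527) in every library. Mzb1 (0.781), Fcrla (0.650), Blk (0.356), Ms4a1 (0.0922), Pax5 (0.0247) and Cr2 (0.0173) followed with overlapping ranges. On this scale Igj stood at 46.3 in fat and 4.24 in tumours, and Cd79b at 3.96 and 3.02. The 2 tables were normalised separately and hold different tissues, so no test was made between them.

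**Figure D4:**
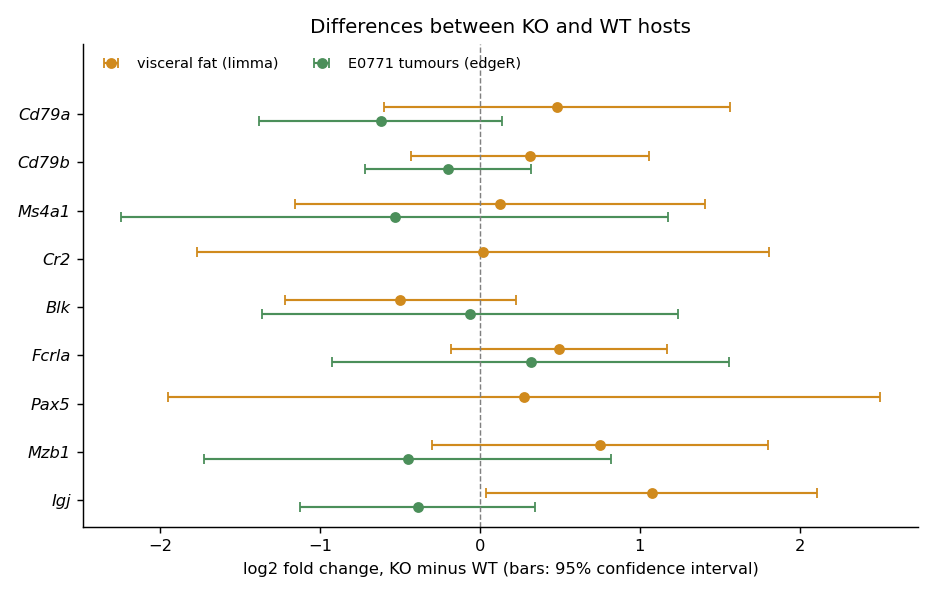
Log2 fold change (KO minus WT) with its 95% confidence interval for each member in visceral fat (orange, limma, 3 WT and 4 KO libraries) and E0771 tumours (green, edgeR, 3 and 3); Cr2 and Pax5 were not tested in tumours. The intervals include 0 for every member and tissue except Igj in fat, where the interval is not adjusted for the 14455 genes tested and the adjusted p was 0.0986.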

How the data were processed

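Libraries were made from total RNA with a stranded mRNA kit, per the labels' protocols, and CASAVA, TopHat, DESeq2 and mm10 are named in the submitters' processing notes, with no versions or roles. For tumours the authors deposited raw read counts per gene, with 5 summary lines (66.7% to 72.2% of entries) that were left out. For fat the deposited signal is a read count divided by a size factor, since 117220 of 117220 values came out whole within 0.001 of a read. How reads were counted, and on which strand, is not given in the sources used here.

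Tumour counts were tested with edgeR 4.0.16 (TMM, filterByExpr, quasi-likelihood; 13109 genes) in R 4.3.3. Fat was tested with limma 3.58.1 (trend) after adding 1 and taking log2, keeping the 14455 genes that reached 10 in 3 or more libraries, so folds of low genes are understated. P-values were two-sided and adjusted by Benjamini-Hochberg over all genes tested. The fat table numbers its WT columns 1, 3 and 4 and the labels number the replicates otherwise, so these columns were assigned to the group only. Within groups no library duplicated another (chi-square per degree of freedom at least 24.2). Intervals for reads are exact Poisson and cover counting error only. Scripts were tested on simulated data.

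The members and lists were chosen with earlier results of these data known. Genes named beside the members were Cd274, up to 4 called genes per list of largest change (where none passed, the 2 of smallest p), defining markers and the 8 genes most like the members' mean; other genes named were chosen after their values were seen, and some genes the rule gives are not reported here. Alternatives changed scaling, filter, pseudocount, test, replicate block and libraries, with DESeq2 1.42.0 in tumours.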

Additional observations from a re-analysis of the deposited data

Results flagged for a closer look

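A library was set apart where its gap to the nearest other library of its group was large for the group's range, which chance alone does in about 1 in 20 groups; 50 groups of 4 fat libraries were examined. None of the 9 members was marked in this way. Siglech, a marker of plasmacytoid dendritic cells, was highest in KO replicate 1 at 75.1, against 9.99 to 16.1 in the other KO fat libraries. Pnlip, a pancreatic lipase, was highest in KO replicate 4 at 493, against 0 to 9.08.

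Tnfsf13 (APRIL), a survival factor of plasma cells, had a log2 fold change of 1.37 in fat, where every KO library lay above every WT library, and of -1.02 in tumours, where every KO library lay below every WT library (edgeR adjusted p = 0.627). The difference between the tissues was not tested.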

How the results depend on the processing

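No member was called in any fit of either tissue: 129 values under 15 alternatives in fat (adjusted p from 0.0563 to 0.998) and 77 under 11 in tumours (0.429 to 1.0). Ms4a1 in fat turned to -0.0015 with edgeR on the recovered reads. Leaving out 1 library turned the sign of 3 members in fat, with log2 fold changes of -0.25 to 0.74 for Ms4a1, -0.52 to 0.72 for Cr2 and -0.50 to 0.82 for Pax5, and of 4 in tumours, with -0.95 to 0.38 for Blk, -0.56 to 0.67 for Fcrla, -1.11 to 0.064 for Ms4a1 and -1.19 to 0.031 for Mzb1. Over all genes, leaving out 1 library gave 1575 to 2691 higher and 1490 to 2567 lower calls in fat, lowest without the WT column numbered 3, and 0 to 10 higher and 0 to 11 lower in tumours. Without KO replicate 3 and the WT column numbered 3 of fat, chosen after the values were seen, 1208 were higher and 1291 lower, with fewer libraries. Scaling fat to equal library totals gave 3124 higher and 2015 lower against 2430 and 2517. In tumours, no filter gave 21 higher and 1 lower and DESeq2 gave 47 and 12; the cause was not tested. No paired analysis was possible for fat because the WT columns carry other numbers than the labels. In tumours the replicate block gave 0 calls, with Cd79a at -0.66. Same-numbered libraries did not deviate together (r = -0.23, 0.01 and -0.22). These r values come from deviations from the means of groups of 3, so they cannot decide whether the numbers pair the libraries. Pax5 and Cr2 are limited by depth, with 0 to 17 reads per tumour.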

Other observations

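Further lists of cells and tissues near B cells were read in fat. Of 7 tested germinal centre and follicular dendritic cell genes, 4 rose and 2 fell (median log2 fold change 0.90, and 0.49 to 1.495 with 1 library left out). S1pr2, a receptor that holds germinal centre B cells in place and that other cells also make, measured 3150, 3034, 2184 and 2654 in KO and 1155, 774 and 461 in WT (log2 fold change 1.87, SE 0.28, limma adjusted p = 0.00231). Rgs13 and Mef2b were low, at 11.9 to 32.0 and 7.05 to 13.6 in KO and 0.860 to 5.16 and 0.860 to 3.91 in WT. Fcamr, a receptor for IgA and IgM, fell by 3.77 (SE 0.82), from 14.6, 26.4 and 104 in WT to 0, 1.08, 4.54 and 3.02 in KO. Without KO replicate 3 and the WT column numbered 3, 1 of these genes rose and 1 fell, and 2 rose without KO replicate 1 or KO replicate 3 alone. The count that fell was 1 without any one of the 3 WT columns.

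Of 7 tested markers of plasmacytoid dendritic cells 1 rose, Cox6a2, and it kept that call in 4 of 7 fits that left out 1 library. Of 7 tested markers of high endothelial vessels and lymph node stroma, 1 rose and 2 fell (1 fell without the WT column numbered 3). Of 5 tested genes on the list of epithelial tumour markers 1, Krt7, fell. That list also holds Vim, which is not particular to epithelium. Krt7 lost its call without KO replicate 2, KO replicate 4 or the column numbered 3 of the WT group. With equal library totals, among other settings, 1 gene of the list was called higher, and it need not be an epithelial one. The 6 exocrine pancreas markers did not reach the minimum value in enough fat libraries to be tested; their summed value was 2079 in KO replicate 4 and 3.24 to 53.0 in the other 6 libraries. In tumours 0 genes of these lists passed.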
